A study of Homo sapiens with 8 samples.

Results

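The nuclear oxidative phosphorylation genes were compared between 2 breast cancer cell lines, and between cultures with and without doxycycline, on 8 Affymetrix expression arrays hybridised with total RNA. The genes were chosen by symbol, as those that start with NDUFA, NDUFB, NDUFC, NDUFS, NDUFV, UQCR, COX4, COX5, COX6, COX7, COX8 or ATP5, together with the SDH genes of complex II, CYC1 and CYCS. The rule found 93 of the 18239 genes with a probe set that names 1 gene, and 88 of them passed the filter on low values and were tested among 13002 genes. They comprise 6 core subunits of complex I, 30 accessory subunits of complex I, 8 complex I assembly factors with an NDUFAF symbol, 3 genes of complex II, 10 of complex III with cytochrome c, 17 of complex IV and 19 of ATP synthase.

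The arrays form 4 groups of 2: 231BrM with doxycycline, 231BrM control, SKBrM3 with doxycycline and SKBrM3 control. The names are those of brain-metastatic derivatives of the breast cancer lines MDA-MB-231, which is mesenchymal-like, and SKBR3, which carries an amplified ERBB2 gene. Cells of all 4 groups hold a hairpin RNA directed against MET, a receptor tyrosine kinase, that doxycycline switches on, and grew in DMEM with fetal bovine serum. The doxycycline groups received 100 ng of the drug, for which no volume is given, for 48 h. No group received doxycycline without the hairpin, so what the drug does and what the hairpin does cannot be told apart. Whether the replicates are separate cultures is not stated in the labels, and the p-values then cover only the scatter among these arrays, which could be technical. Each line is a single cell line, and a difference between them is a difference between these cultures.

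Oxidative phosphorylation is the set of reactions in the inner mitochondrial membrane that make most of the ATP of resting cells. Complex I takes electrons from NADH and complex II takes them from succinate. Complex III passes them by way of cytochrome c to complex IV, which reduces oxygen, and ATP synthase uses the proton gradient built on the way. Most subunits are encoded in the nucleus and the rest in mitochondrial DNA, so the complexes need products of both genomes. The mitochondrially encoded subunits were not analysed here. Doxycycline is known as an inhibitor of mitochondrial ribosomes, and in tumour cells the balance between respiration and glycolysis is known to vary between lines. NRF1, GABP of the ETS family and YY1 are the transcription factors best known for binding the promoters of these genes.

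Promoters of 5 of the genes are shown. NDUFS6 had the largest difference between the lines and was lower in 231BrM, and CYCS was the gene most raised there. NDUFA8, NDUFA9 and COX4I1 are the lower genes of largest difference among those that hold a given motif, so that they hold motifs because they were chosen for them. The sequences are from RefSeq (GRCh38.p14) and run from 250 bases before to 50 bases after the gene's start. They lie at chr5:1801157-1801456 on the plus strand for NDUFS6, at chr9:122159730-122160029 on the minus strand for NDUFA8, at chr12:4648864-4649163 on the plus strand for NDUFA9, at chr16:85799445-85799744 on the plus strand for COX4I1 and at chr7:25125211-25125510 on the minus strand for CYCS. Capitals mark matches, on either strand, to motifs known for 3 kinds of factor. The NRF1 motif is a palindromic core with a free central pair of bases, the ETS motif is CCGGAAG, and the YY1 motif is the run in capitals nearer the 3' end of NDUFA9. The capitals of NDUFA8 are 2 overlapping NRF1 matches, those of NDUFA9 are an NRF1 and then a YY1 match, and those of COX4I1 are an ETS match read from the opposite strand.
NDUFS6: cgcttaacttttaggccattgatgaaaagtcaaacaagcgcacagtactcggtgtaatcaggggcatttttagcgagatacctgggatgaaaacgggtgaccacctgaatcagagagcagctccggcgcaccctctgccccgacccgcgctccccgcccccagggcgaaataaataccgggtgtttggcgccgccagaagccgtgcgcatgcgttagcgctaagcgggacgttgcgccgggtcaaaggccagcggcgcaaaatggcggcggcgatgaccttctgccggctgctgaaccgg
NDUFA8: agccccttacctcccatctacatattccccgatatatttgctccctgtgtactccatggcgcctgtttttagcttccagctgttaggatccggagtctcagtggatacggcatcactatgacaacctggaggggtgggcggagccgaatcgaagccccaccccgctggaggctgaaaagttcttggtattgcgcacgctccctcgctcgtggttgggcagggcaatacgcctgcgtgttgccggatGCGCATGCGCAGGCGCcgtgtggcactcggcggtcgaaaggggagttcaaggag
NDUFA9: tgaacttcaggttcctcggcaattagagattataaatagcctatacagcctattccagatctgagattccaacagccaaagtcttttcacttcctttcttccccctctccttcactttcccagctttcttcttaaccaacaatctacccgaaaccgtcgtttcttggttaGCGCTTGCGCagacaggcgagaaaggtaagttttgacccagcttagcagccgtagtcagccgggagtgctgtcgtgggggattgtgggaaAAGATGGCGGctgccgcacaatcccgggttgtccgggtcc
COX4I1: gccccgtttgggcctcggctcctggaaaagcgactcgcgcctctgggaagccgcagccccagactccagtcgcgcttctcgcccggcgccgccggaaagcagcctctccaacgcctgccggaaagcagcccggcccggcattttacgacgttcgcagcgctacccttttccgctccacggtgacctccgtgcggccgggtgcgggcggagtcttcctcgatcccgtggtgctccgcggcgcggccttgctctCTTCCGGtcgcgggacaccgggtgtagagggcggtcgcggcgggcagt
CYCS: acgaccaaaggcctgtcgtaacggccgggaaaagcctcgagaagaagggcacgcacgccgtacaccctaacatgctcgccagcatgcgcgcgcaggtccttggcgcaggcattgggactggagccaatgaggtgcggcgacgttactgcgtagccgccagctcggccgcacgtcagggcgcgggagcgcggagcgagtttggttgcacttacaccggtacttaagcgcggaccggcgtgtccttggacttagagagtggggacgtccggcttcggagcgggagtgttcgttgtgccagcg
In the windows of NDUFS6 and CYCS none of these motifs was found.

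RefSeq promoters were matched to 76 of the 93 genes. Each gene counts once, as holding a motif if any of its listed windows does, so the promoters counted here are genes. The NRF1 motif stood in 18 of these 76 promoters, or 23.7%, against 9.98% of all 27305 promoters and 17.2% of the promoters of the genes tested. The form with the central pair that the upstream match of NDUFA8 shows, which is a special case of that motif, stood in 6.58% of the 76 against 1.52% of all promoters and 2.41% of those of the genes tested. The ETS motif was found in 28.9% of the 76, against 12.2% of all promoters and 20.5% of those of the genes tested. The YY1 motif was found in 10.5% of the 76, against 1.46% of all promoters and 3.09% of those of the genes tested. All of these shares were above both backgrounds, as a description of the letters and not of binding. Of the genes lower in 231BrM without doxycycline 38 had a promoter, and the NRF1 motif stood in 11 of them, against 7 of the other 38. The YY1 motif stood in 6 promoters of the lower genes and in 2 of the others, and the ETS motif in 11 of each.

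MET, the target of the hairpin, had log2 values of 5.85 and 5.35 on the 231BrM doxycycline arrays, against 9.45 and 9.26 on the 231BrM control arrays. On the arrays labelled SKBrM3 it had 5.76 and 5.71 with doxycycline, against 9.25 and 9.20 without it. The label of the line was checked against markers. ERBB2 had 6.87 and 6.76 on the 231BrM control arrays and 6.70 and 6.72 on those labelled SKBrM3, so the arrays labelled SKBrM3 showed no raised ERBB2. GRB7, a neighbour of ERBB2 on the amplified segment, stood at 5.09 and 5.12 on the 231BrM control arrays and at 5.14 and 5.19 on the SKBrM3 control arrays. The luminal markers CDH1, ESRP1 and TFAP2B were below the filter level, and VIM lay between 12.7 and 12.9 on all 8 arrays. The other listed markers of a mesenchymal-like line, CD44, AXL, MSN, CAV1 and FN1, lay between 9.25 and 11.64 on the 8 arrays. Of the 8 tested markers of an ERBB2-amplified luminal line, KRT19, KRT8 and KRT18 were higher in 231BrM, by 2.59, 1.07 and 0.63 log2 units. PGAP3, another neighbour of ERBB2, had 6.1 and 6.0 on the 231BrM control arrays and 6.32 and 6.41 on the SKBrM3 control arrays. Of the 8 markers, PGAP3 alone was called higher on the SKBrM3 control arrays, and SKBrM3 below means the arrays so labelled. Of 12 markers of leukocytes, endothelium, fibroblasts and astrocytes, 11 had a probe set and 5 were tested, with values from 4.82 to 5.71 on the 8 arrays. On the first 231BrM doxycycline array the actin control probes had a 3' signal that exceeded the 5' signal by 1.24 log2 units, where the other 7 arrays had 0.46 to 0.59. The part of this array in the doxycycline results was not tested. Counts of calls among the 88 genes are given with and without it.

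The question of the first comparison was how the lines differ before the hairpin is switched on. Without doxycycline, 41 of the 88 genes were lower in 231BrM than in SKBrM3 and 2 were higher, while 45 did not pass the test. A gene is called at a limma p-value, adjusted by Benjamini-Hochberg over all 13002 genes, under 0.05. Over all genes 19.9% were lower and 19.8% higher, so calls over all genes split about evenly, while 41 of the 43 calls among the oxidative phosphorylation genes were lower. The differences were small. Their median was -0.24 log2 units, against -0.05 over all genes, and no gene differed by 2-fold. In RNA of whole cultures, fewer cells that express a gene and less of its RNA per cell cannot be told apart. On the control arrays the lines did not overlap for 61 genes that were lower in 231BrM and for 9 that were higher, where 43.6% and 33.2% of all genes were in these positions. The lower genes came from every complex, and the plot of line differences shows them by complex.

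**Figure D1:**
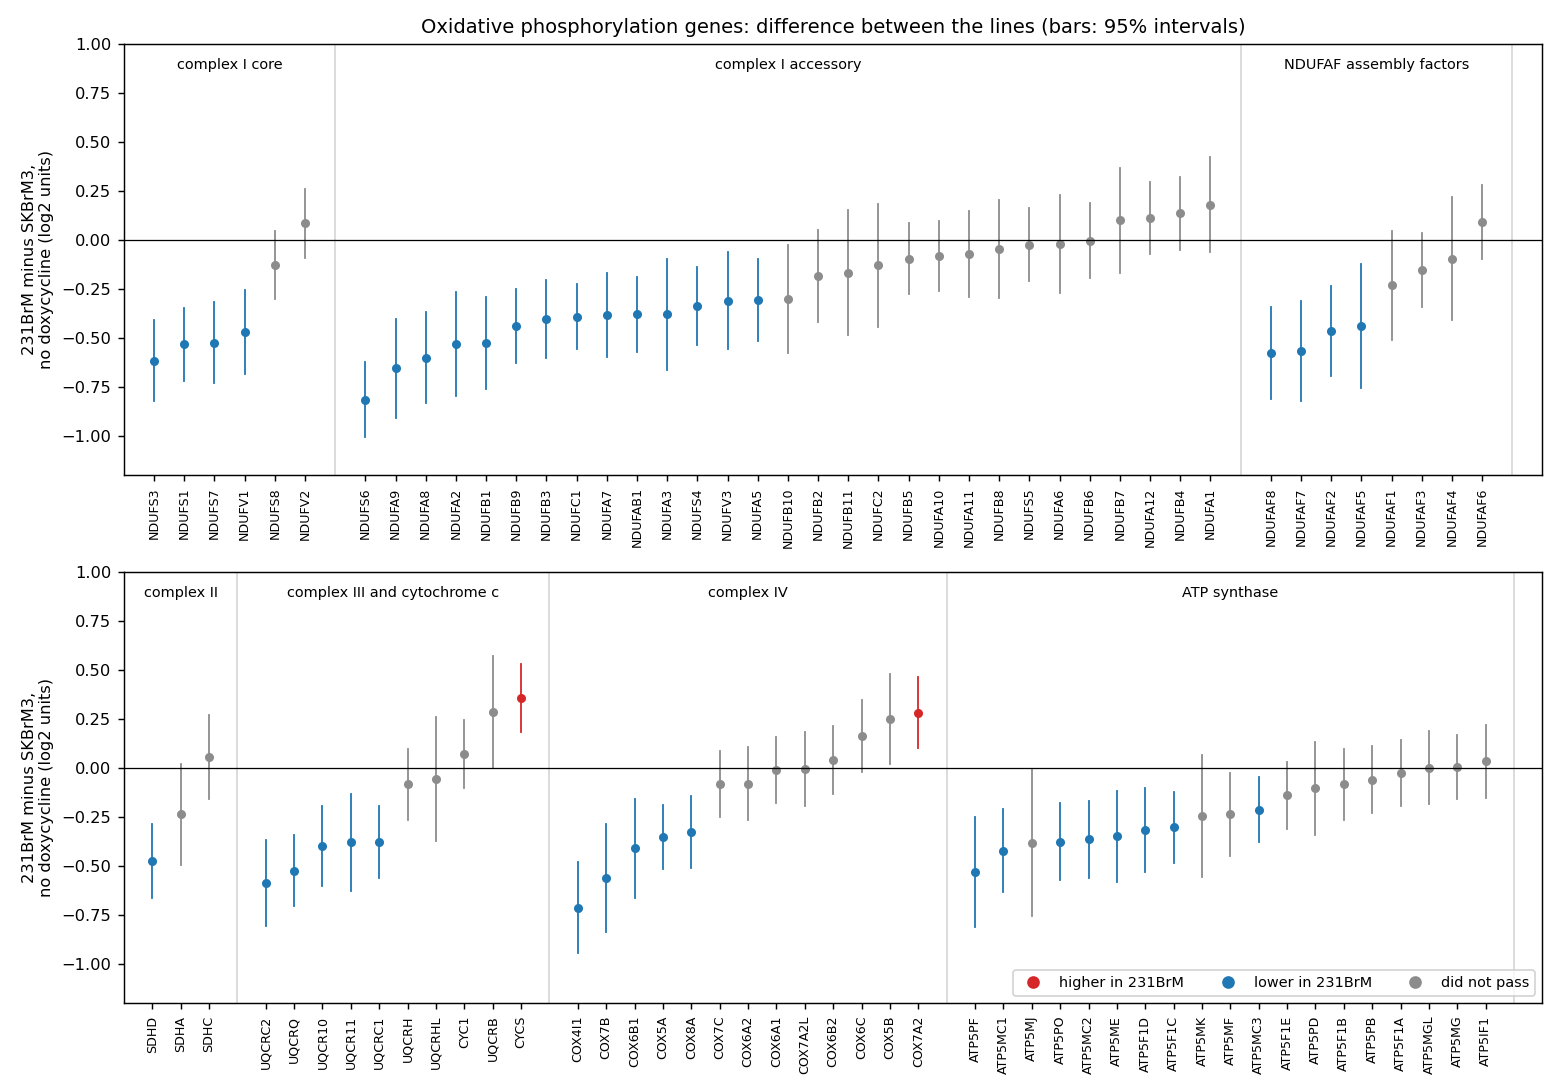
Difference between 231BrM and SKBrM3 without doxycycline for each of the 88 genes tested, in log2 units, grouped by complex and sorted within it. Points are limma estimates from 2 control arrays per line and bars their 95% intervals, with 41 genes called lower (blue), 2 called higher (red) and 45 that did not pass (grey).

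Of the 6 core subunits of complex I, among them those that carry the flavin and iron-sulfur centres, 4 were lower in 231BrM. The median of the 6 was -0.50 log2 units. NDUFS3, a subunit near the ubiquinone site, had log2 values of 9.22 and 9.24 in 231BrM, against 9.89 and 9.81 in SKBrM3. Its difference was -0.62 (standard error 0.090, limma adjusted p = 0.000834). NDUFV1, which binds NADH and the flavin, had 8.18 and 8.08 in 231BrM, against 8.64 and 8.56 in SKBrM3. For both genes the lines did not overlap. NDUFS1, the largest iron-sulfur subunit, was lower at -0.53 (limma adjusted p = 0.00106), and its 4 other probe sets gave differences from -0.53 to -0.47. NDUFS7 was the other lower core gene, at -0.52. NDUFS8 gave -0.13 and NDUFV2 gave 0.08, and neither passed the test.

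Of the 29 accessory subunits of complex I tested, which surround and stabilise the core, 14 were lower in 231BrM and 0 were higher. NDUFS6, a zinc-binding subunit of the NADH-oxidising arm, had 9.48 and 9.55 in 231BrM, against 10.38 and 10.29 in SKBrM3. This was the largest difference of all 88 genes, -0.82 log2 units (standard error 0.084, limma adjusted p = 0.000123), which is 1.76-fold. NDUFA9, which sits where the arms of the complex join, had 8.94 and 8.88 in 231BrM, against 9.57 and 9.56 in SKBrM3. NDUFA8, a cysteine-rich subunit on the side of the intermembrane space, had 9.53 and 9.60 in 231BrM, against 10.15 and 10.18 in SKBrM3. The differences of these genes were -0.66 and -0.60, and the arrays of the lines lay clearly apart. The other 11 lower accessory genes ranged from -0.53 for NDUFA2 to -0.31 for NDUFA5. The 15 that did not pass ranged from -0.30 for NDUFB10 to 0.18 for NDUFA1. NDUFA13, a further accessory subunit, was below the filter level with the probe sets that name it alone, and probe sets that name it together with YJEFN3 were left out.

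Among the 8 NDUFAF assembly factors, which help to build complex I and are not part of it, 4 were lower in 231BrM and 0 were higher. NDUFAF8, which acts with NDUFAF5, had 8.75 and 8.91 in 231BrM, against 9.44 and 9.38 in SKBrM3. NDUFAF7, a methyltransferase that modifies a core subunit, had 7.05 and 7.27 in 231BrM, against 7.71 and 7.73 in SKBrM3. Their differences were -0.58 and -0.57, with limma adjusted p-values of 0.00236 and 0.00405. NDUFAF2 at -0.46 and NDUFAF5, which hydroxylates the core subunit NDUFS7, at -0.44 were the other lower genes. NDUFAF1, NDUFAF3, NDUFAF4 and NDUFAF6 did not pass, with values from -0.23 to 0.09.

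Complex II, which also serves the tricarboxylic acid cycle, gave 1 call among its 3 genes. SDHD, a membrane anchor that holds haem, had 9.72 and 9.90 in 231BrM, against 10.28 and 10.29 in SKBrM3, a difference of -0.48 log2 units (limma adjusted p = 0.00222). SDHA, the flavoprotein, gave -0.24 (limma adjusted p = 0.131), and SDHC, the other anchor, gave 0.06 with a 95% interval from -0.16 to 0.27.

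In complex III with cytochrome c, 5 of 10 genes were lower in 231BrM and 1 was higher. UQCRC2, a core protein that holds the complex together, had 9.61 and 9.62 in 231BrM, against 10.18 and 10.22 in SKBrM3. UQCRQ, a small subunit, had 11.17 and 11.15 in 231BrM, against 11.67 and 11.69 in SKBrM3. These genes differed by -0.59 and -0.52 log2 units, more than the distance between replicates. UQCR10, UQCR11 and UQCRC1 were also lower, at -0.40, -0.38 and -0.38, and UQCRC1 lost its call without the second 231BrM control array (limma adjusted p = 0.0517). CYCS, which encodes cytochrome c, a mobile electron carrier that also triggers caspases when released, went the other way. It had 11.63 and 11.67 in 231BrM, against 11.34 and 11.25 in SKBrM3, a difference of 0.36 (standard error 0.076, limma adjusted p = 0.00591). Without the second SKBrM3 control array the limma adjusted p was 0.0511. CYC1, the electron-carrying cytochrome c1 subunit, gave 0.07 (limma adjusted p = 0.482) and UQCRB gave 0.28 (limma adjusted p = 0.103), so its values pointed the same way as CYCS without passing. UQCRH and UQCRHL are near-identical copies, and probes could not be assigned to one of them with certainty.

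In complex IV 5 of 13 genes were lower in 231BrM and 1 was higher, with differences from -0.71 to 0.28 log2 units. COX4I1, the widely expressed form of subunit 4, had 10.54 and 10.65 in 231BrM, against 11.30 and 11.31 in SKBrM3. Its difference was -0.71 (standard error 0.102, limma adjusted p = 0.000719), and its 2 other probe sets gave -0.72 and -0.29. COX7B, COX6B1, COX5A and COX8A were also lower, at -0.56, -0.41, -0.35 and -0.33. COX7A2, the form of subunit 7A found in most tissues, had 11.40 and 11.47 in 231BrM, against 11.13 and 11.17 in SKBrM3. It was higher by 0.28 (standard error 0.080, limma adjusted p = 0.0215), and the call was lost when any 1 of the 4 control arrays was left out. The isoforms known from muscle and other special tissues stayed at low values. COX4I2, COX7A1, COX7B2 and COX8C, of which COX7A1 is the muscle form, did not pass the filter. COX6A2, also a muscle form, lay between 4.33 and 4.52 on the 8 arrays, next to the filter level of 4.41, and gave -0.08. COX6A1, its widely expressed counterpart, gave -0.01 with a 95% interval from -0.18 to 0.16, and COX7A2L, which links complexes III and IV, gave -0.0045 with an interval from -0.19 to 0.18. COXFA4, earlier named NDUFA4 and now counted with complex IV, falls outside the rule by its current symbol. It had 11.21 and 11.18 in 231BrM, against 10.75 and 10.76 in SKBrM3, a difference of 0.44 (limma adjusted p = 0.00934). That call was lost without the first 231BrM control array or without either SKBrM3 control array, with limma adjusted p-values from 0.0509 to 0.0612.

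Of the 19 ATP synthase genes 8 were lower in 231BrM, 0 were higher, and the median was -0.24 log2 units. ATP5PF, a subunit of the peripheral stalk that keeps the catalytic head from turning, had 10.36 and 10.40 in 231BrM, against 10.92 and 10.90 in SKBrM3, which gave -0.53 (limma adjusted p = 0.00872). ATP5MC1, ATP5MC2 and ATP5MC3, which encode the same mature subunit of the rotor ring, were all lower, at -0.42, -0.36 and -0.21. The gamma and delta subunits ATP5F1C and ATP5F1D were lower, at -0.30 and -0.32. The alpha subunit ATP5F1A gave -0.03 and the catalytic beta subunit ATP5F1B gave -0.08, with 95% intervals from -0.20 to 0.14 and from -0.26 to 0.10, and neither passed. Differences between subunits were not tested. ATP5PO of the peripheral stalk, at -0.38, and ATP5ME of the membrane part, at -0.35, complete the lower genes. ATP5IF1, which inhibits the enzyme when the gradient collapses, gave 0.04 (limma adjusted p = 0.759). ATP5MGL, a near-identical copy of ATP5MG, was tested at values next to the filter level, and probes of the pair could not be assigned with certainty.

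Other probe sets were set beside those used. Of the 41 lower genes, 21 had other tested probe sets, 41 in all, and each gave a difference of the same sign. The 2 higher genes had 5 others, again all of the same sign. This count leaves out genes that were not called, some of which differed by probe set. ATP5MG gave 0.0047 with the probe set used and -0.35 and -0.32 with others. UQCRH gave -0.08 with the one used and -0.77 with another. ATP5F1A gave -0.03 with the one used and from -0.07 to 0.14 with others. Leaving out the first 231BrM control array left 20 lower and 1 higher calls, where 12.6% and 13.0% of all genes were called. Leaving out the second SKBrM3 control array left 23 lower and 0 higher, where 12.3% and 14.1% of all genes were called. These fits assume that the lone array of a group varies like the other groups.

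The doxycycline arrays give the same comparison in separate arrays, which was added after the control arrays had been examined. There 34 genes were lower in 231BrM than in SKBrM3 and 5 were higher, where 19.8% and 21.8% of all genes were called. Both comparisons called 31 genes lower, which is 75.6% of the 41 and 91.2% of the 34. Of the 41 genes, 40 had a negative difference on the doxycycline arrays too. The exception was NDUFA5, an accessory subunit, with 8.52 and 8.38 in 231BrM, against 8.34 and 8.45 in SKBrM3 on these arrays. Across the 88 genes the line differences had a Pearson correlation of 0.888 and a Spearman correlation of 0.895 between the pairs of array sets, which share the lines and the probe sets. The 5 higher genes were CYCS, UQCRB, COX6C, NDUFAF6 and NDUFB4. COX7A2 gave 0.22 there and did not pass (limma adjusted p = 0.060). Without the first 231BrM doxycycline array, 45 genes were lower and 3 higher, where 24.5% and 20.6% of all genes were called, and 35 were lower in both comparisons.

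**Figure D2:**
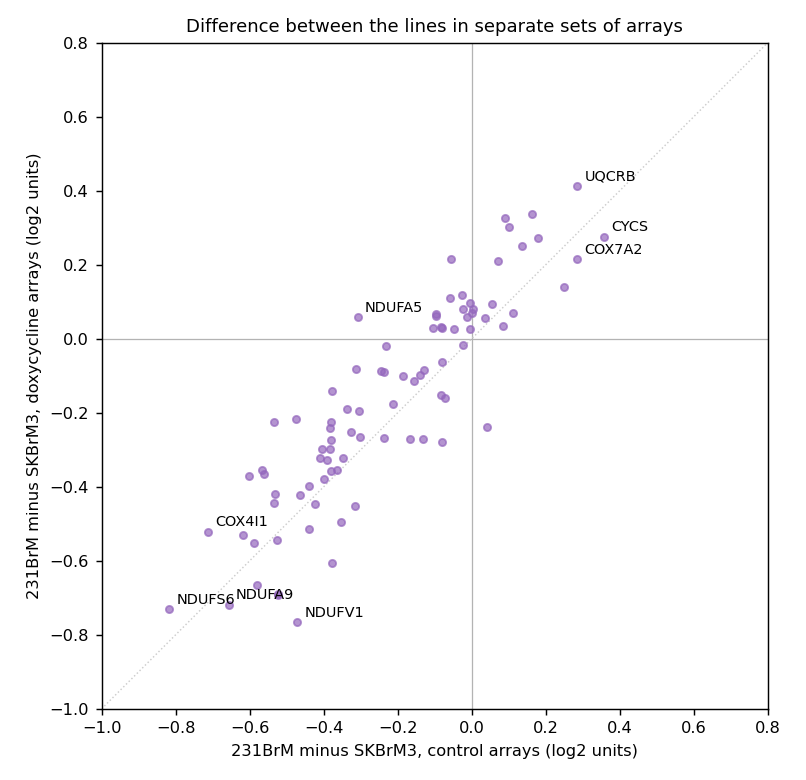
Each point is 1 of the 88 genes. The x axis gives 231BrM minus SKBrM3 on the control arrays and the y axis the same difference on the doxycycline arrays, both in log2 units, with a dotted line of equality. Most points lie in the lower left, with NDUFS6 at -0.82 and -0.73, while CYCS and UQCRB lie in the upper right and NDUFA5 at -0.31 and 0.06.

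**Figure D3:**
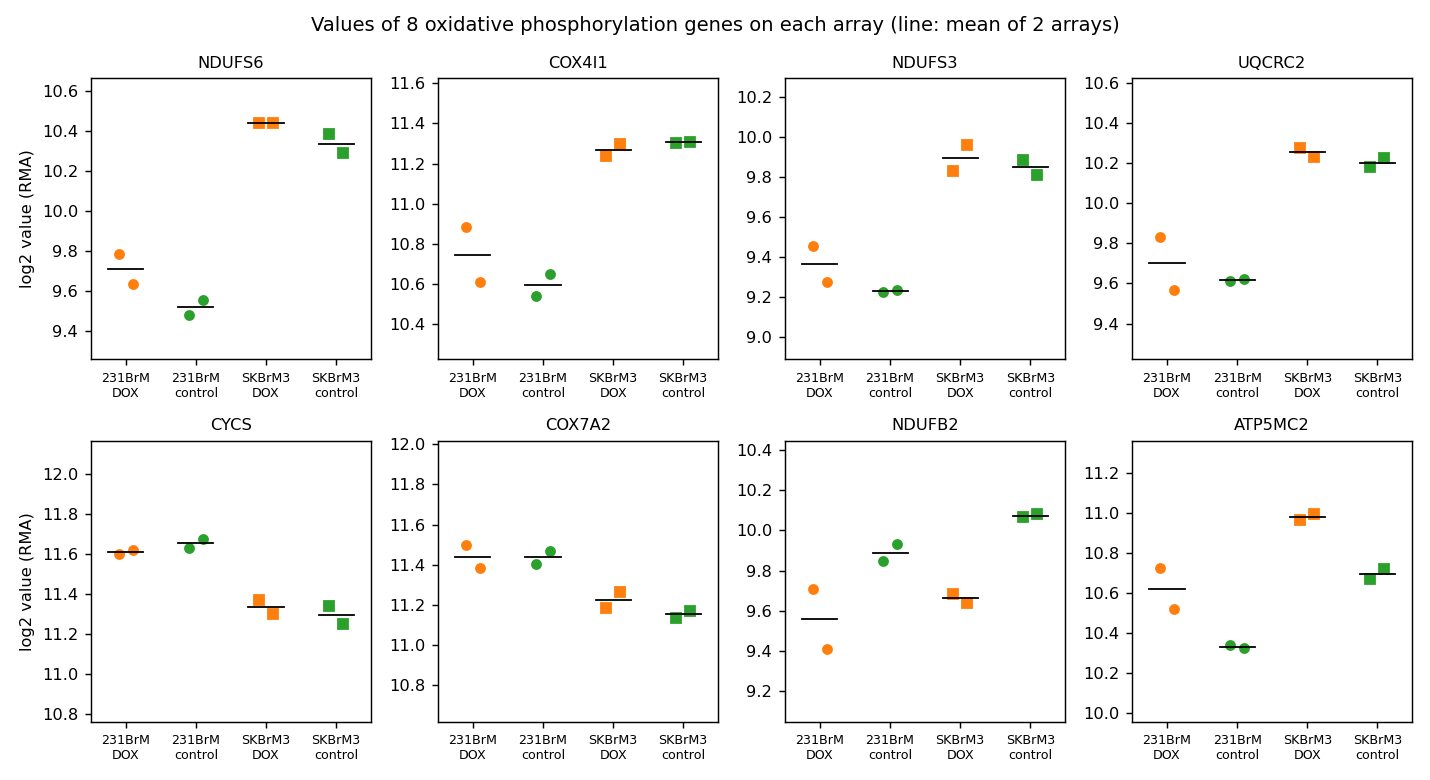
Log2 values of 8 of the genes on every array, with orange for doxycycline and green for control, circles for 231BrM, squares for SKBrM3 and a line for the mean of 2 arrays. All panels span the same range of log2 units. NDUFS6, COX4I1, NDUFS3 and UQCRC2 are lower on all 4 arrays of 231BrM, CYCS and COX7A2 are higher on them. In both lines the doxycycline arrays lie below the control arrays for NDUFB2 and above them for ATP5MC2.

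The question of the next comparison was what doxycycline, with the hairpin it switches on, changed in each line. In 231BrM 0 of the 88 genes passed the test in either direction, against 21 of all genes, or 0.162%, all of them lower. At an unadjusted p under 0.05 there were 4 higher genes and 1 lower, where 6.15% and 3.74% of all genes were in these positions. The median of the 88 genes was 0.09 log2 units, against 0.05 over all genes, and the arrays of the group disagreed. On the first doxycycline array, the one with the higher 3' signal, 76 of 88 genes lay above their control mean, with a median of 0.17, and 70.2% of all genes did. On the second array 43 of 88 did, with a median of -0.0048, and 49.5% of all genes. Over all genes the medians were 0.0960 on the first array and -0.0013 on the second. Without the first array 1 gene was called, NDUFB2, which was lower, where 0.6% of all genes were. Without the second, 19 were called, all higher, where 8.98% of all genes were called higher, and that fit rests on the array with the higher 3' signal alone. The plot of single doxycycline arrays shows the shift on 1 array of 4.

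**Figure D4:**
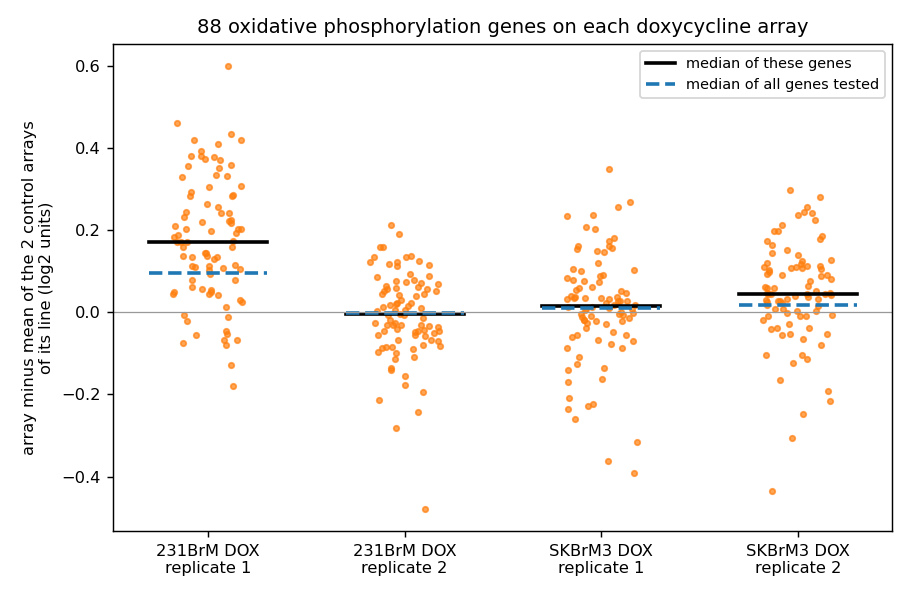
Each point is 1 of the 88 genes on 1 doxycycline array, as its log2 value minus the mean of the 2 control arrays of its line. Solid black lines are medians of these genes and dashed blue lines medians of all genes tested. The first 231BrM array has a median of 0.17, and the other 3 arrays have medians from -0.0048 to 0.0447.

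The genes with the smallest p in 231BrM did not pass and are given as values. ATP5MC2, a gene of the rotor ring, had 10.72 and 10.52 with doxycycline, against 10.34 and 10.32 without it, a difference of 0.29. NDUFA7, an accessory subunit of complex I, had 9.33 and 9.16 with doxycycline, against 8.91 and 8.99 without it. UQCR10, a small subunit of complex III, had 11.03 and 10.83 with doxycycline, against 10.62 and 10.73 without it. In these genes both doxycycline arrays lay above both control arrays. NDUFB2, an accessory subunit in the membrane arm of complex I, had 9.71 and 9.41 with doxycycline, against 9.85 and 9.93 without it, and lay lower on both. The limma adjusted p-values of these genes ranged from 0.386 to 0.437. ATP5MF, a membrane subunit of ATP synthase, gave -0.16 and COX5A gave -0.08. The core and marker genes of the pathway gave small values, among them SDHA at 0.03, NDUFV1 at 0.02, CYC1 at 0.14, CYCS at -0.04, ATP5F1A at 0.06 and COX4I1 at 0.15, and for each the 95% interval included 0.

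In the arrays labelled SKBrM3 0 of the 88 genes passed, against 446 of all genes, or 3.43%. At an unadjusted p under 0.05 there were 5 higher and 5 lower genes, where 10.4% and 9.81% of all genes were. The median was 0.03 log2 units, against 0.01 over all genes, and the doxycycline arrays had 51 and 63 of 88 genes above their control mean, where 52.4% and 53.9% of all genes were. NDUFB2 came nearest, with 9.68 and 9.64 with doxycycline, against 10.07 and 10.08 without it. It differed by -0.41 (standard error 0.104, limma adjusted p = 0.0717), far more than the replicates, yet without passing. NDUFS1, the iron-sulfur subunit, had 9.10 and 9.22 with doxycycline, against 9.51 and 9.42 without it, at -0.30, and its 4 other probe sets gave values from -0.42 to -0.05. ATP5MF had 11.14 and 11.15 with doxycycline, against 11.48 and 11.44 without it. NDUFV1, the NADH-binding subunit, had 8.95 and 8.88 with doxycycline, against 8.64 and 8.56 without it. The groups did not overlap in these 3 genes, and NDUFV1 lay higher while the others lay lower. ATP5MC2 gave 0.28 and COX6B2, a testis form of a complex IV subunit, gave 0.24 at values from 4.56 to 4.85, close to the filter level. Without either 231BrM doxycycline array the spread shared by the fit was smaller and 6 genes were called in SKBrM3, 3 higher and 3 lower, where 6.41% and 6.14% of all genes were called. With array weights 7 were called, 4 higher and 3 lower, where 6.13% and 6.2% of all genes were called.

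Averaged over both lines, 1 gene was higher and 1 lower with doxycycline, where 0.969% and 2.07% of all genes were called. ATP5MC2 was higher by 0.29 log2 units (standard error 0.061, limma adjusted p = 0.0471). NDUFB2 was lower, at -0.37 (standard error 0.073, limma adjusted p = 0.0370). Each had 1 probe set, and in both lines all doxycycline arrays lay on the same side of all control arrays. Both calls were lost in each of the 6 fits that leave out a 231BrM control array or an SKBrM3 array, with limma adjusted p-values from 0.126 to 0.190. With the replicate number as a block ATP5MC2 was not called (limma adjusted p = 0.0520). Without the first 231BrM doxycycline array 1 gene was higher and 2 were lower, the added gene being ATP5MF, where 1.47% and 3.81% of all genes were called. Without the second, 26 were higher and 2 lower, where 15.5% and 6.71% of all genes were called. The next genes did not pass and were UQCR10 at 0.24 (limma adjusted p = 0.0822), NDUFA7 at 0.22 and ATP5IF1 at 0.16, and on the lower side ATP5MF at -0.24, NDUFS1 at -0.15 and NDUFAF6 at -0.12. The median of the 88 genes was 0.06, against 0.03 over all genes.

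**Figure D5:**
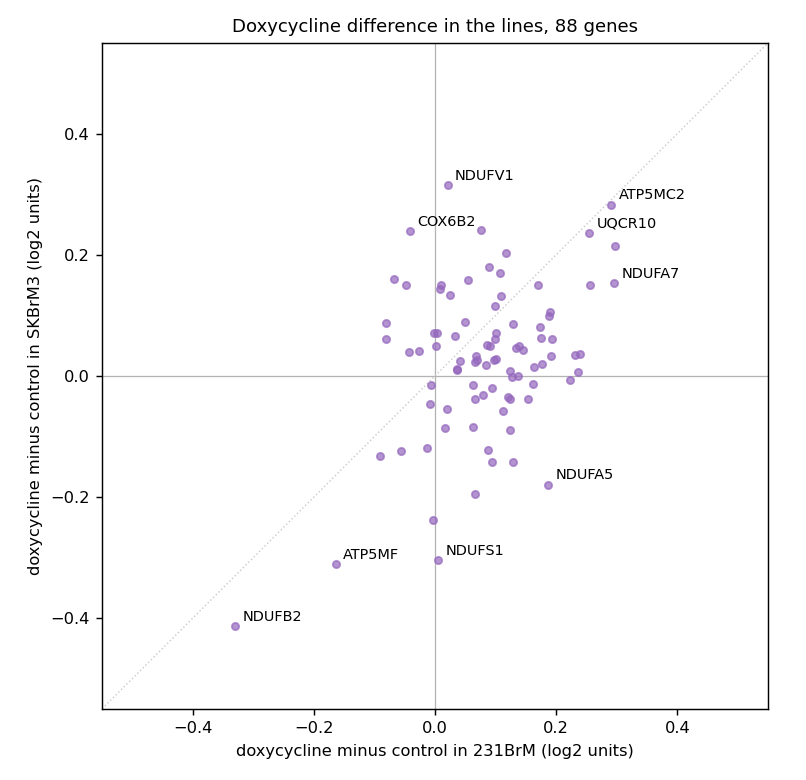
Each point is 1 of the 88 genes, with doxycycline minus control in 231BrM on the x axis and in SKBrM3 on the y axis, in log2 units, and a dotted line of equality. NDUFB2 at -0.33 and -0.41 and ATP5MC2 at 0.29 and 0.28 lie along the line, while NDUFS1 and NDUFV1 lie near 0 in 231BrM and away from it in SKBrM3. Points are from the probe set used, and other probe sets of NDUFS1 gave -0.49 to -0.08 in 231BrM.

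The difference of the doxycycline effect between the lines, 231BrM minus SKBrM3, was called in 0 of the 88 genes and in 3 of all genes, or 0.0231%. Without the first 231BrM doxycycline array it was called in 0 of the 88 and in 5 of all genes. At an unadjusted p under 0.05 there were 2 higher and 1 lower, where 6.86% and 4.31% of all genes were. NDUFA5 gave 0.37 log2 units, with a 95% interval from 0.07 to 0.66 and a limma adjusted p of 0.368. NDUFS1 gave 0.31 and SDHD gave 0.26, while COX6B2 gave -0.28, NDUFV1 gave -0.29 and UQCRC1 gave -0.23. The value of NDUFS1 rests on the probe set used. Its other probe sets gave doxycycline differences of -0.49 to -0.08 in 231BrM and -0.42 to -0.05 in SKBrM3, lower in both lines. For SDHD the probe set used gave 0.07 in 231BrM and -0.19 in SKBrM3. Other probe sets of SDHD gave 0.29 to 0.41 in 231BrM and -0.41 to -0.11 in SKBrM3. The effects in the 2 lines, which share no arrays, had a Pearson correlation of 0.387 and a Spearman correlation of 0.183 over the 88 genes. In simulated data on 13002 genes, a shift of 0.5 log2 units was recovered for 80% of changed genes in 231BrM and 72% in SKBrM3. Smaller effects than that could be missed. Every group had the same spread in the simulation. The 231BrM doxycycline replicates differed with a standard deviation of 0.255 over all genes, against 0.124 to 0.138 in the other groups. Recovery in 231BrM was therefore not measured at its own spread.

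Other genes of the pathway were read from lists of assembly factors, regulators, tricarboxylic acid cycle enzymes and quality control factors. Without doxycycline, 18 of the 40 other assembly factors of the respiratory chain were lower in 231BrM and 1 was higher. Their median was -0.19 log2 units. In this comparison 19.9% of all genes were called lower and 19.8% higher. DMAC1, a factor for the distal part of complex I, had 7.88 and 7.97 in 231BrM, against 9.24 and 9.22 in SKBrM3, a difference of -1.30. SDHAF3, a complex II assembly factor, gave -0.93 and BCS1L, which inserts the iron-sulfur protein into complex III, gave -0.77. COX19, a copper-handling factor of complex IV, was higher by 0.36. Of 12 regulators of mitochondrial biogenesis 4 were lower and 1 was higher. TFAM, which packages mitochondrial DNA and starts its transcription, had 8.79 and 8.76 in 231BrM, against 9.58 and 9.65 in SKBrM3, a difference of -0.84 (limma adjusted p = 0.000101). POLRMT, the mitochondrial RNA polymerase, gave -0.38 and TFB2M, its partner at promoters, gave -0.36, while GABPB1, the beta subunit of GABP, was higher by 0.38. NRF1 gave 0.06 and YY1 gave 0.00065, and neither passed.

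Of 16 genes of the tricarboxylic acid cycle and pyruvate dehydrogenase, 8 were lower in 231BrM and 2 were higher. Their median was -0.25 log2 units, and 19.9% of all genes were called lower and 19.8% higher. PDHA1, the catalytic subunit that feeds pyruvate into the cycle, had 8.90 and 9.01 in 231BrM, against 10.19 and 10.23 in SKBrM3, which is 2.39-fold lower. SUCLG2, a subunit of succinate-CoA ligase, differed by -1.14 and IDH3A, the catalytic subunit of isocitrate dehydrogenase, by -0.60. IDH3G, a regulatory subunit of the same enzyme, was higher by 0.69, so subunits of 1 enzyme differed in opposite directions, and OGDH was higher by 0.53. Of 12 mitochondrial chaperones and proteases 7 were lower and 1 was higher, with a median of -0.31. TRAP1, LONP1 and HSPD1 gave -0.63, -0.56 and -0.52, and the protease subunit CLPP had 9.88 and 9.89 in 231BrM, against 9.33 and 9.26 in SKBrM3.

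With doxycycline, 0 genes of these lists passed in 231BrM, and COX11 and AFG3L2 were lower in SKBrM3. Of all genes 0.162% were called in 231BrM, and 2.28% were called lower in SKBrM3. COX11, which delivers copper to complex IV, had 9.32 and 9.41 with doxycycline, against 9.97 and 10.01 without it, a difference of -0.62 (limma adjusted p = 0.00526). AFG3L2, a protease of the inner membrane, had 7.18 and 7.15 with doxycycline, against 7.63 and 7.73 without it, a difference of -0.52 (limma adjusted p = 0.0126). Both lay outside the range of the control arrays. In 231BrM the same genes gave -0.17 and -0.34 without passing. On average over the lines COX11, AFG3L2 and COX15, a haem A synthesis factor, were lower, at -0.40, -0.43 and -0.28. ATPAF1, an assembly factor of ATP synthase, was higher by 0.28. In that average 2.07% of all genes were called lower and 0.969% higher. Without the first 231BrM doxycycline array 0 genes of these lists passed in 231BrM. That fit leaves out no SKBrM3 array, so the SKBrM3 differences of COX11 and AFG3L2 could not change in it. With its smaller spread the fit also called further genes of these lists in SKBrM3, in both directions. On average it called NUBPL lower, a complex I assembly factor, in addition to the 4 genes above.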

How the data were processed

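The authors deposited 1 log2 value for each probe set on each array, made with RMA, per the submitters' processing notes. For the RMA version, chip definition and genome build, none is given in the sources used here. RMA makes the distributions of all arrays alike, which hides any difference in the amount of RNA a cell holds, and values of different genes were not compared. Of 49386 probe sets, 45259 name 1 gene and were used. Each gene was read from its probe set of highest average, and 208 probe sets name the 93 genes. The filter kept genes that 2 or more arrays showed above 4.41, which is the 40th percentile of the table.

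The fit used limma 3.58.1 in R 4.3.3 (functions lmFit and eBayes), with a mean for each of the 4 groups. It had 4 residual degrees of freedom and 4.59 from the prior. Tests were two-sided, with Benjamini-Hochberg adjustment over 13002 genes. The number of arrays limits the precision. Over all genes the standard error of a doxycycline difference in 1 line had a median of 0.0968. Simulated data had the same spread in every group. In them, shifts of 1.0 log2 units were found for 99% of the shifted genes in either line, with 9 false calls. Alternatives were another filter, the mean of all probe sets, array weights, a variance trend, fewer arrays, a replicate block and centred arrays.

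The genes, lists and naming rule were chosen with earlier results of these data known. Named are up to 8 called genes per direction, or up to 3 with the smallest p where fewer than 3 were called, a fixed set of subunits and isoform pairs, and up to 3 called genes per other list and direction. Genes that complete a complex's count, NRF1 and YY1 were named after their values were seen.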

Additional observations from a re-analysis of the deposited data

How the results depend on the processing

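The calls between the lines stayed mostly lower in 231BrM, with 41 to 51 called genes under the 7 other settings of the fit, 39 on the doxycycline arrays and 21 to 53 when 1 array was left out. In 231BrM 0 genes were called with doxycycline under each of the 7 settings and 0 to 19 without 1 array. In SKBrM3 the count was 7 with array weights, 3 with a variance trend, 4 with only the 4 arrays compared and 3 with arrays centred on their median, and it was 0 to 6 without 1 array. Over all genes these settings called 1603, 585, 1248 and 668, against 446. The average of the lines had 4 calls with a variance trend and 0 to 28 without 1 array. The difference of the doxycycline effect had 0 calls throughout. The share of all genes called also changed with the setting. Between the lines it was 39.7% in the main fit, 51% with array weights and 28.7% without the filter. For the average of the lines it was 3.04% in the main fit, 4.04% with a variance trend and 3.4% with the replicate block. Without 1 array this share broadly rose and fell with the counts above. Whether the counts changed apart from this share was not tested. Whether replicate numbers pair the samples was not settled. Same-numbered deviations correlated at 0.239 in 231BrM and -0.0123 in SKBrM3. A fit with the replicate number as a block left 1 call on average, NDUFB2, with ATP5MC2 at a limma adjusted p of 0.0520, and 41 between the lines. Without 1 array COX7A2 lost its line call in 4 fits, COXFA4 in 3, CYCS and UQCRC1 in 1 each.

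Values near 0 that were not called changed sign in some alternatives, and the cause was not tested. With the mean of all probe sets these were, for doxycycline in 231BrM, SDHC at 0.0570, NDUFS1 at -0.165 and ATP5F1A at -0.0486, in SKBrM3 SDHC at 0.0129 and CYC1 at 0.0378, and between the lines ATP5F1A at 0.0142, ATP5IF1 at -0.0156 and COX6A1 at 0.0195. With centred arrays they were, in 231BrM, NDUFV1 at -0.0072, NDUFS1 at -0.0225 and COX7A2 at -0.0247, in SKBrM3 CYCS at -0.0098, ATP5F1B at -0.0087, COX6A1 at -0.0229 and COX7A2L at -0.0067, and between the lines ATP5IF1 at -0.0044. Without 1 array the doxycycline values in 231BrM ranged from -0.136 to 0.202 for SDHA, -0.128 to 0.111 for SDHC, -0.0229 to 0.153 for SDHD, -0.0884 to 0.129 for NDUFV1, -0.0312 to 0.0417 for NDUFS1, -0.0836 to 0.0289 for ATP5F1B, -0.0555 to 0.0614 for COX7A2 and -0.0739 to 0.235 for COXFA4. In SKBrM3 they ranged from -0.0556 to 0.0544 for CYC1 and -0.0047 to 0.0841 for CYCS, and between the lines from -0.0272 to 0.0980 for ATP5IF1, -0.0343 to 0.0103 for COX6A1 and -0.0201 to 0.0111 for COX7A2L. With 2 arrays a group, and no measured background for low values, small differences could be missed.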
